A study of Mus musculus with 65 samples.

Results

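Voltage-gated sodium channel transcripts were followed through 65 single HSD2 neurons of the mouse brainstem, cell by cell and by diet. The genes taken were 5 alpha subunits (Scn1a, Scn2a1, Scn3a, Scn8a and Scn9a) and 2 auxiliary subunits (Scn2b and Scn3b). They were chosen by name, and all 7 are among the 11875 genes used from the expression table. HSD2 neurons lie in the nucleus of the solitary tract (NTS) and make the enzyme that lets aldosterone, the salt-retaining adrenal hormone, reach its receptor. The series asks how these neurons differ with sodium state, since they are described in its title as pacemakers whose activity depends on state.

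By label, 32 neurons came from mice on a low-sodium diet and 33 from mice on standard chow. Both groups came from male mice of mixed strain that carried Hsd11b2-Cre and the Ai9 reporter, which turns on the red protein tdTomato for good wherever Cre has acted. Red cells were picked by hand after papain digestion, and each was frozen and made into a Smart-Seq2 library of polyA RNA, which covers transcripts over their full length. The sources used here do not give the ages of the mice, their number or the length of the diet. Because no label ties a cell to an animal, each diet counts as 1 sample, cells are not its replicates, and the diets were compared without a test. Every SD below is the spread between cells.

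Voltage-gated sodium channels open when a neuron depolarises and carry the inward current of the action potential. The alpha subunit is the whole pore, built of similar domains in a row, and a short loop between the third and the fourth domain swings into the pore to close it within moments. Auxiliary beta subunits cross the membrane once, bind an alpha subunit, and alter its gating and its delivery to the surface. Scn1a and Scn3a are alpha subunits found mostly on cell bodies, Scn2a1 on the initial segment and on unmyelinated axons, and Scn8a on mature initial segments and nodes of Ranvier. Scn9a is best known from the pain-sensing neurons of peripheral ganglia. Scn2b is tied to its alpha subunit by a disulfide bond, whereas Scn3b binds without one.

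The 5 alpha genes are close relatives, and 4 of them lie together on chromosome 2. In the GRCm38 build, with the GENCODE M21 annotation, Scn3a is at chr2:65457118-65567627 on the minus strand and Scn2a1 (annotated as Scn2a) at chr2:65620771-65767447 on the plus strand. Scn1a is at chr2:66270778-66440840 and Scn9a at chr2:66480080-66634962, both on the minus strand. Scn8a stands alone at chr15:100869858-101045938 on the plus strand. The auxiliary genes are both on the plus strand of chromosome 9, Scn3b at chr9:40269217-40291618 and Scn2b at chr9:45117782-45130070. All 7 are protein-coding, and the transcript with the longest coding sequence has 27 exons in each alpha gene, 4 in Scn2b and 7 in Scn3b.

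The alpha genes are alike enough that some reads could be shared between them. Over whole coding sequences, identity between alpha genes ran from 72.3% (Scn8a and Scn9a) to 83.9% (Scn2a1 and Scn3a). Of the 50-base windows of each gene's transcripts, 6.49% in Scn3a, 5.62% in Scn2a1, 4.04% in Scn9a and 4.03% in Scn1a occurred in another of the 7 genes. The share was 0.0374% in Scn8a, and 0 windows were shared in Scn2b and Scn3b, whose coding sequences were 61.1% identical to each other. The longest run of identical coding bases was 188, in Scn1a and Scn2a1. Reads that fall wholly in such stretches cannot be told apart between genes, and the sources used here do not say how they were counted. Scn9a also shares 180 exonic bases (1.41% of its exons) with the antisense gene Gm13629, and whether counting used strand is not stated either.

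Transcripts of all 7 genes were found in most cells of both diets. Values are log2(CPM + 1) as deposited, or CPM, scaled read counts recovered from them. Low-sodium cells had between 50540 and 5319462 reads in listed genes (median 694430), and chow cells between 50078 and 3244893 (median 602351). A single read was worth 0.16 to 16.1 CPM. In 9 of the 32 low-sodium cells the CPM summed to between 1393471 and 2170050, against 754874 to 1147326 in the other 56 cells, so values are given with and without these 9. They are called the high-sum cells here, and the other 23 low-sodium cells the usual-sum cells. At least 3 of 7 neuronal markers and at least 3 of 5 HSD2 neuron markers reached 10 CPM in all 65 cells. At least 3 markers of some other cell type reached 10 CPM in 16 low-sodium and 18 chow cells.

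Scn2a1 and Scn9a were detected in all 65 cells, with an exact 95% binomial interval of 94.5% to 100% that covers counting error only. Scn2b was found in 64 cells, Scn1a and Scn3a in 63 each, Scn8a in 62 and Scn3b in 61. All 5 alpha subunits were present together in 26 of 32 low-sodium cells and in 33 of 33 chow cells, and both auxiliary subunits in 29 and 31 cells. All 7 genes were present in 25 low-sodium and 31 chow cells. The 7 low-sodium cells that lacked a gene were neurons 6, 13, 17, 31, 35, 45 and 51. Neuron 35, which had 50540 reads and the fewest detected genes of any cell (4652), lacked Scn3a, Scn8a and Scn3b. Neuron 13, with 2445201 reads, listed Scn1a at 0, and neuron 17, with 1936353 reads, listed Scn3a at 0, so their read counts were not all low. All 7 did have few detected genes, from 4652 in neuron 35 to 6612 in neuron 6, against a median of 8045 in low-sodium cells. The 2 chow cells that lacked a gene, neurons 21 and 36, had 8617 and 7827 detected genes, against a median of 8141 in chow cells. The part of the number of detected genes in the missing genes was not tested. After every cell was thinned to 50000 reads, Scn2a1 and Scn9a remained detected in 65 cells, Scn2b and Scn3a in 62, Scn1a in 61, Scn8a in 59 and Scn3b in 56.

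**Figure D1:**
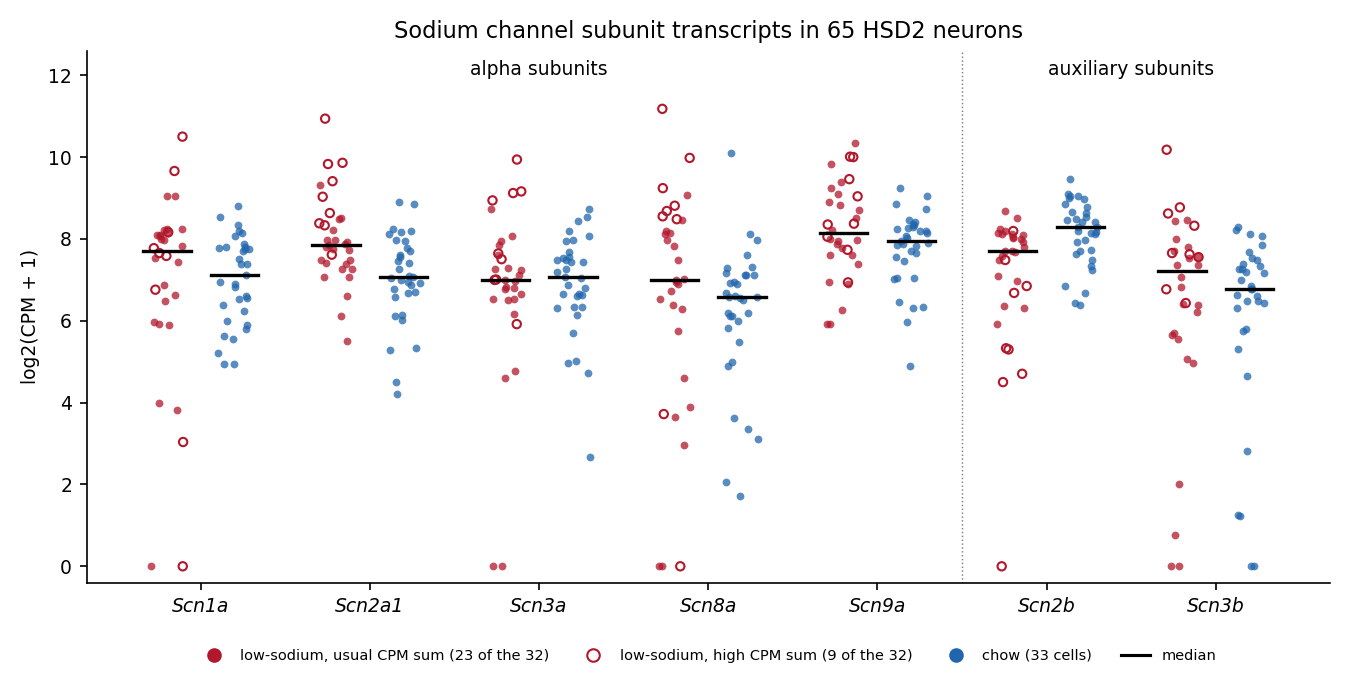
Level of each of the 7 subunit genes in every neuron as log2(CPM + 1), with low-sodium cells left of chow cells, open circles for the 9 high-sum low-sodium cells and a bar at the median of each diet. Scn2a1 and Scn9a are above 0 in all 65 cells, and 30 of 32 low-sodium cells lie at or under the chow median of Scn2b.

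Scn9a had the highest median per kilobase of exon among the alpha subunits in both diets, at 22.0 CPM per kb in low-sodium cells and 19.2 in chow cells. In the 9 high-sum cells alone it was at 25.9, below Scn2a1 (41.0) and Scn8a (26.0). Scn9a ran from 59.5 to 1296 CPM in low-sodium cells (median 281) and from 28.8 to 604 CPM in chow cells (median 245). Mean log2(CPM + 1) was 8.22 ± 1.16 in low-sodium cells (SD, 32 cells) and 7.75 ± 0.94 in chow cells (SD, 33 cells), a difference of 0.47 that was 0.30 without the high-sum cells. The ranges overlapped, with 6 low-sodium cells above the highest chow cell, 3 of them high-sum cells.

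Scn2a1 was higher in low-sodium cells under every alternative tried, and over all cells its difference in mean log2(CPM + 1) was the largest of the alpha subunits. That rank was lost without the high-sum cells, to Scn3a (-0.58), and without the cells that carried markers of other cell types, to Scn1a (-0.89). After thinning to 50000 reads Scn2a1 and Scn1a had differences of like size, 0.58 and -0.58. Scn2a1 ran from 44.7 to 1964 CPM in low-sodium cells (median 231) and from 17.6 to 474 CPM in chow cells (median 133). Of the 32 low-sodium cells, 29 were above the chow median (9 of 9 high-sum and 20 of 23 usual-sum cells), and 6 were above the highest chow cell, 5 of them high-sum cells. The mean was 8.00 ± 1.10 in low-sodium cells and 7.05 ± 1.11 in chow cells. The difference of 0.96 was 0.52 without the high-sum cells, which is less than the SD over cells in either diet. Taken from mean CPM plus 1 in place of mean log2 values, the log2 ratio was 1.07, and that of Scn8a was 1.14.

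Scn1a and Scn3a had almost the same mean in both diets but a wider spread in low-sodium cells. The wider spread is not particular to them, since the SD over cells was wider in low-sodium cells in all of the 7 genes except Scn2a1. Without the high-sum cells it was not wider in Scn2b either (0.71 in low-sodium and 0.79 in chow cells). Scn1a ran from 0 to 1448 CPM in low-sodium cells (median 209) and from 29.9 to 446 CPM in chow cells (median 139). The low-sodium cells reached past the chow cells at both ends, with 4 cells above and 5 below the chow range. Its mean was 6.90 ± 2.41 in low-sodium cells and 7.00 ± 1.07 in chow cells, a difference of -0.10. Here the mean and the median had opposite orders: the median over cells was 0.59 higher in low-sodium cells. Scn3a ran from 0 to 982 CPM in low-sodium cells (median 127) and from 5.42 to 427 CPM in chow cells (median 134). Its mean was 6.80 ± 2.12 in low-sodium cells and 6.90 ± 1.25 in chow cells, a difference of -0.10 that was -0.58 without the high-sum cells. All 4 low-sodium cells above the chow range of Scn3a were high-sum cells. Scn1a turned to 0.12 when low-sodium neuron 13 or 51 was left out and to 0.02 without neuron 45, and Scn3a turned to 0.12 without neuron 17 or 35. Without the cells that carried markers of other cell types, Scn1a differed by -0.89 and Scn3a by -0.61.

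Scn8a had the lowest median per kilobase of exon, at 8.11 CPM per kb in low-sodium cells and 6.06 in chow cells, and the widest SD of the alpha subunits. In the 9 high-sum cells alone its median was 26.0 CPM per kb, above those of Scn1a (18.0) and Scn3a (16.0). It ran from 0 to 2320 CPM in low-sodium cells (median 128) and from 2.31 to 1097 CPM in chow cells (median 95.5). The highest value was that of low-sodium neuron 51, a high-sum cell with 0 reads of Scn1a. Among chow cells, neuron 4 was highest for both Scn8a and Scn1a. Mean log2(CPM + 1) was 6.52 ± 2.84 in low-sodium cells and 6.15 ± 1.75 in chow cells. The difference of 0.37 was -0.06 without the high-sum cells.

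Scn2b, the disulfide-linked auxiliary subunit, was lower in low-sodium cells under every alternative tried, and over all cells its difference in mean log2(CPM + 1) was the largest of the 7 genes. That rank was lost under some alternatives, among them leaving out the high-sum cells, size factors, medians and mean CPM. Scn2b ran from 0 to 407 CPM in low-sodium cells (median 207) and from 82.5 to 704 CPM in chow cells (median 311). Only 2 of the 32 low-sodium cells were above the chow median, both of them usual-sum cells, and 8 were below the lowest chow cell (5 high-sum and 3 usual-sum cells). The mean was 7.06 ± 1.70 in low-sodium cells and 8.14 ± 0.79 in chow cells, a difference of -1.08. The median was 39.2 CPM in the 9 high-sum cells and 240 CPM in the 23 usual-sum cells. Without the high-sum cells the difference was -0.45, less than the SD over cells of either diet (0.71 in low-sodium and 0.79 in chow cells), and the log2 ratio taken from mean CPM plus 1 over all cells was -0.77. It was also under 1 in size without low-sodium neuron 51 (-0.85) or neuron 45 (-0.998). Without the cells that carried markers of other cell types it was -1.15. Of the 16 low-sodium cells left out there, 3 were high-sum cells, so most of the 9 high-sum cells, neuron 51 among them, stayed in.

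Scn3b, the auxiliary subunit that binds without a disulfide bond, was absent from more cells than any other of the 7. It ran from 0 to 1160 CPM in low-sodium cells (median 148) and from 0 to 315 CPM in chow cells (median 109). It was listed at 0 in low-sodium neurons 31 and 35 and in chow neurons 21 and 36. Mean log2(CPM + 1) was 6.40 ± 2.48 in low-sodium cells and 6.06 ± 2.33 in chow cells. The difference of 0.34 was -0.29 without the high-sum cells. Low-sodium neuron 51 held the highest Scn3b and the only 0 of Scn2b among the 65 cells.

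Per kilobase of exon, Scn2b had the highest median of the 7 transcripts in each diet, though not in the high-sum cells taken alone. Its median was 44.5 CPM per kb in low-sodium cells and 66.7 in chow cells. Over all 65 cells the order of the medians was Scn2b (54.6 CPM per kb), Scn3b (21.1), Scn9a (20.2), Scn1a (16.2), Scn2a1 (14.8), Scn3a (10.5) and Scn8a (6.63). On the log2 scale, every neighbouring pair from Scn3b down to Scn8a differed by less than the SD over cells of either gene. Scn2b was above Scn9a in 21 of 32 low-sodium cells and in 31 of 33 chow cells, and Scn9a was above Scn8a in 59 of all 65 cells. Over all 32 low-sodium cells the order was the same. In chow cells it differed only in that Scn3a (10.8) stood before Scn2a1 (10.5). Scn2a1 was above Scn2b in 10 of 32 low-sodium cells and in 0 of 33 chow cells, and 2 of those 10 remained when the high-sum cells were left out. Within the 9 high-sum cells alone Scn2b had the lowest median of the 7 genes, at 8.42 CPM per kb, where Scn2a1 was at 41.0 and Scn3b at 36.7.

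The share of each alpha subunit in the summed alpha CPM per kb does not depend on the total by which a cell was scaled. Scn9a made up 29.3% ± 15.8 of the alpha sum in low-sodium cells and 30.5% ± 12.1 in chow cells. These are means, and its median share was 23.9% in low-sodium and 31.3% in chow cells. Scn2a1 made up 23.9% ± 9.69 in low-sodium cells and 19.0% ± 9.89 in chow cells, and Scn1a 19.9% ± 13.1 in low-sodium cells and 21.4% ± 10.9 in chow cells. Scn3a followed with 14.7% ± 13.1 in low-sodium cells and 18.7% ± 10.4 in chow cells, and Scn8a with 12.2% ± 10.6 in low-sodium cells and 10.3% ± 8.57 in chow cells. All 5 diet differences were smaller than the SD over cells. Without the high-sum cells Scn9a made up 32.8% ± 16.3 in low-sodium cells, so the order of its means turned. Its median share there, 31.2%, stayed just under that of chow cells. In the high-sum cells alone Scn9a made up 20.3% ± 10.7, below Scn2a1 with 27.1% ± 11.1. The difference of Scn9a was 0.94 percentage points without the cells that carried markers of other cell types.

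In most neurons no single alpha subunit held over 50% of the alpha sum per kilobase. The leading subunit held a median of 37.4% of the alpha sum in low-sodium cells and 37.5% in chow cells, and over 50% in 5 low-sodium and 4 chow cells. Scn9a led in 13 low-sodium and 21 chow cells, and Scn2a1 in 10 low-sodium and 2 chow cells. Scn1a led in 6 cells of each diet, Scn3a in 2 low-sodium and 3 chow cells, and Scn8a in 1 cell of each. Of the 10 low-sodium cells led by Scn2a1, 4 were high-sum cells, and without these Scn9a led in 12 and Scn2a1 in 6 of 23 cells. The extremes were low-sodium neuron 17, where Scn9a held 75.5%, and high-sum low-sodium neuron 45, where Scn3a held 70.8%.

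**Figure D2:**
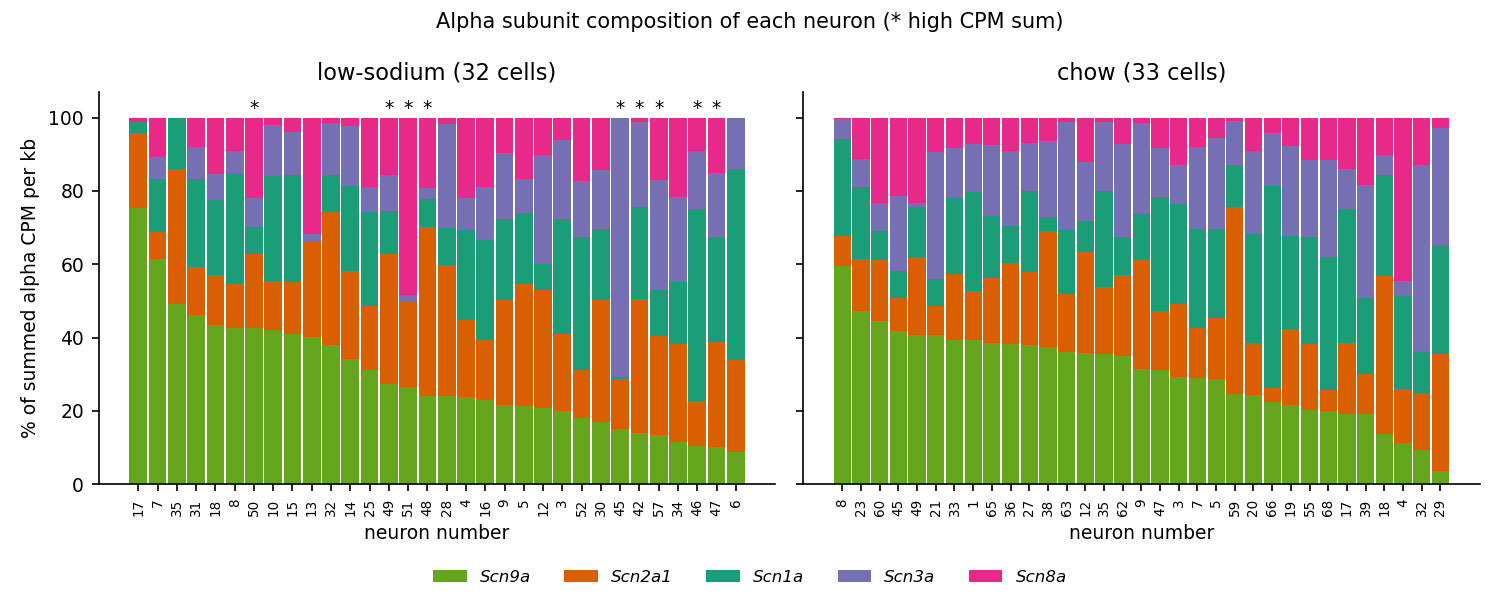
Share of each alpha subunit in the summed alpha CPM per kb of each neuron, in percent, with low-sodium cells on the left, chow cells on the right and neurons ordered by their Scn9a share. Stars mark the 9 high-sum cells. Scn9a runs from 3.62% to 75.5% of the sum.

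The 5 alpha subunits together outweighed Scn2b and Scn3b together in more low-sodium than chow cells. Scn4b, another auxiliary gene, is not among the genes used, so the sum is not that of all auxiliary subunits. The log2 ratio of summed alpha to summed auxiliary CPM per kb was 0.51 ± 1.24 in low-sodium cells, of which 20 of 32 were above 0, and -0.46 ± 0.89 in chow cells, of which 9 of 33 were above 0. The difference of 0.97 is smaller than the SD in low-sodium cells. In the 9 high-sum cells the ratio was 1.32 ± 0.73 with 9 of 9 above 0, and in the 23 usual-sum cells 0.20 ± 1.26 with 11 above 0, a difference from chow of 0.65. Alpha sums had medians of 86.2 CPM per kb in low-sodium and 66.8 in chow cells, and auxiliary sums 75.0 in low-sodium and 83.0 in chow cells. Without the cells that carried markers of other cell types the difference was 0.50.

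**Figure D3:**
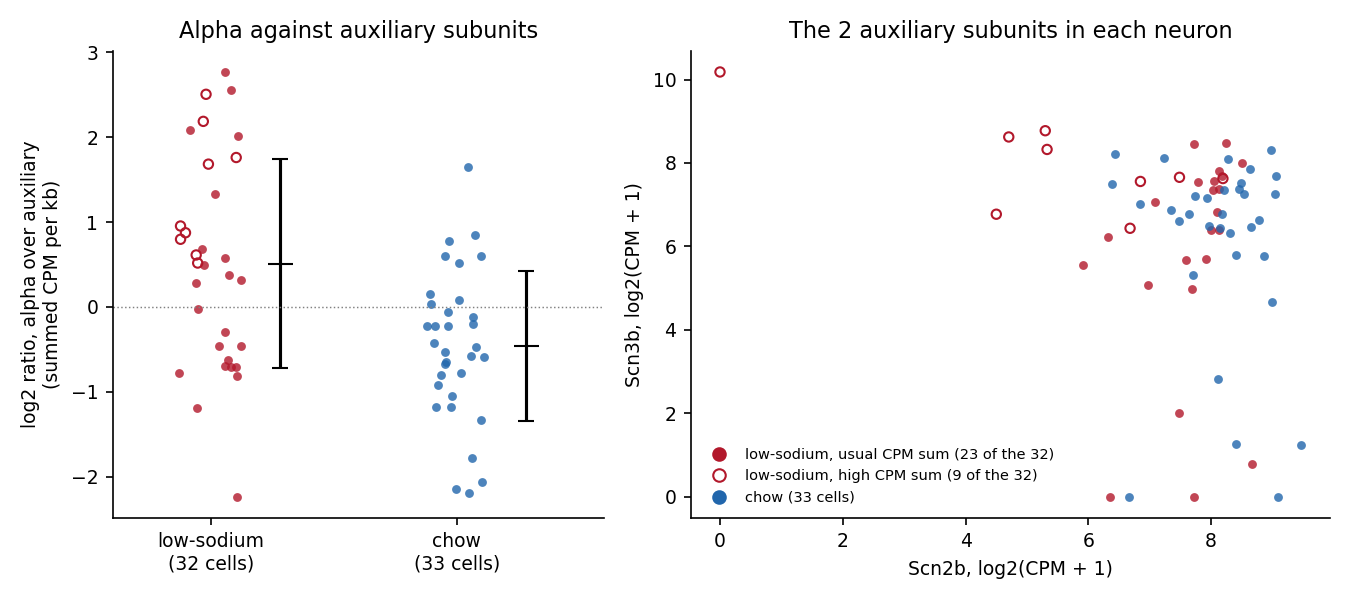
Left, log2 ratio of summed alpha to summed auxiliary CPM per kb in each neuron, with the mean and SD over cells of each diet as bars. Right, Scn3b against Scn2b in log2(CPM + 1), where low-sodium neuron 51 stands at 0 for Scn2b; open circles are the 9 high-sum low-sodium cells.

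Over all genes, 10.9% of the 10726 that reached a mean log2 value of 1 differed by 1 or more between the diets, 3.93% of them higher and 6.99% lower in low-sodium cells. Among the 7 subunit genes 1 did, Scn2b, which was lower, and 0 of 7 were higher by that much. The count for the 7 genes was 2 when low-sodium neuron 35 was left out, as Scn2a1 was then at 1.04, and also without low-sodium neuron 17 (1.00) or 25 (1.02) or chow neuron 12 or 59 (1.01 each). When the high-sum cells were left out, 9.75% of 10777 genes differed by 1 or more (2.98% higher and 6.77% lower in low-sodium cells), and 0 of the 7. In the order of all tested genes the difference of Scn2a1 stood at percentile 95.5 and that of Scn2b at percentile 5.58. They stood at 86.5 and 26.1 when the high-sum cells were left out. The median of the 7 differences was 0.34 with 4 of 7 higher in low-sodium cells, against a median of -0.12 with 42.1% of genes higher over all those tested. It was -0.06 with 2 of 7 higher, against -0.09 over all genes, when the high-sum cells were left out.

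In the high-sum cells, differences went with transcript length, and the alpha subunits have long transcripts. All 5 alpha genes have a longest annotated transcript of at least 8 kb, and Scn2b and Scn3b fall between 4 and 6 kb. Among the 10174 genes with an annotated length, the median difference between low-sodium and chow cells was 0.22 at 8 kb or more, -0.02 from 4 to 6 kb and -0.37 under 2 kb. Without the high-sum cells these medians were -0.0033, -0.07 and -0.14. Between the high-sum and the usual-sum low-sodium cells the medians were 0.64 at 8 kb or more, 0.12 from 4 to 6 kb and -0.78 under 2 kb. In that contrast Scn3a differed by 1.71, Scn2a1 by 1.55, Scn8a by 1.54, Scn9a by 0.61 and Scn1a by -0.15. The auxiliary genes, of like transcript length, went opposite ways there, with Scn3b at 2.22 and Scn2b at -2.23. The part of length in these differences was not tested.

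**Figure D4:**
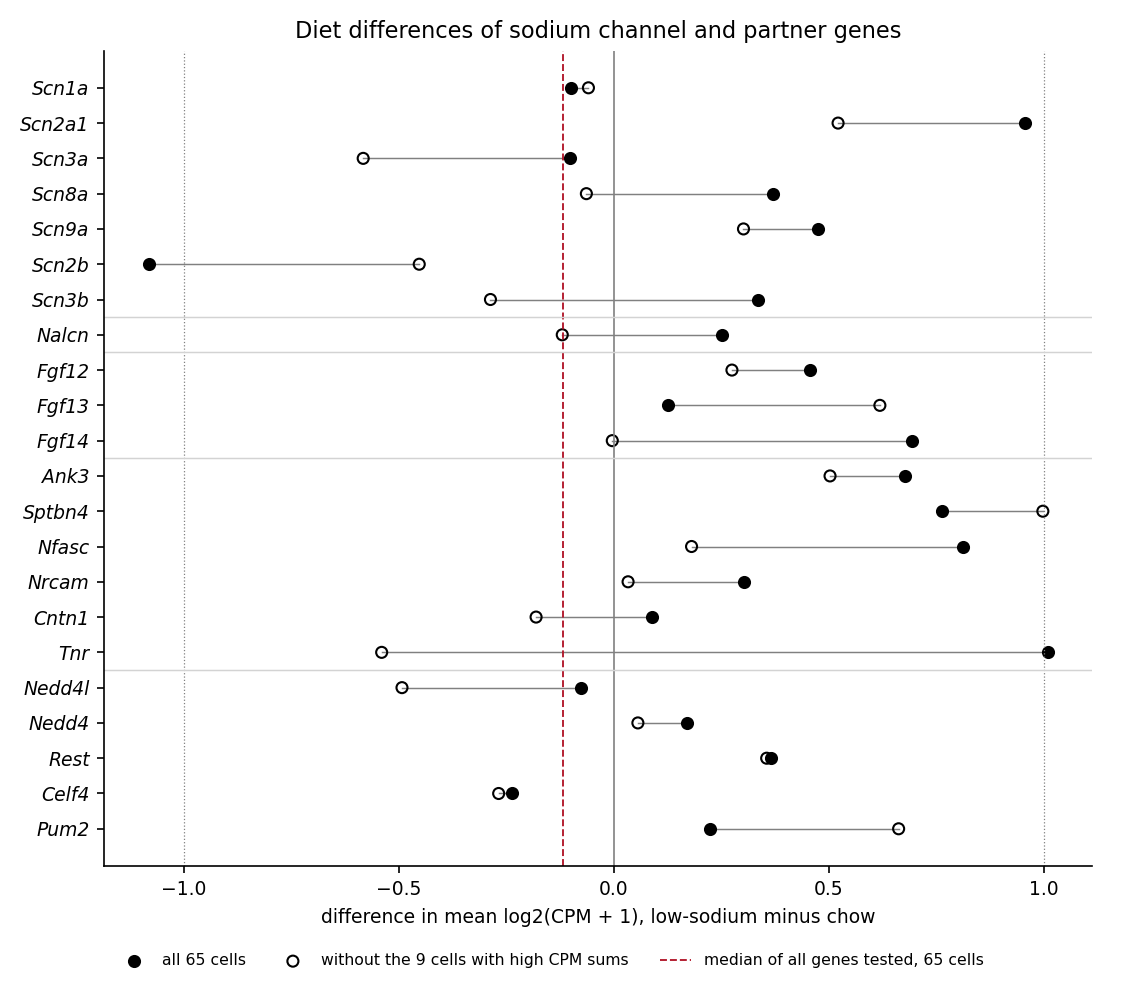
Difference in mean log2(CPM + 1), low-sodium minus chow, of the 7 subunit genes (top) and of 15 related genes, over all 65 cells (filled) and without the 9 high-sum cells (open). Dotted lines mark a difference of 1 in either direction and the dashed line the median of all tested genes, -0.12; Scn2b stands at -1.08 over all cells and at -0.45 without the high-sum cells.

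Genes that work with these channels were taken from lists. Nalcn, the sodium leak channel, was found in 64 cells and was 7.13 ± 1.82 in low-sodium cells and 6.88 ± 1.14 in chow cells. Its difference of 0.25 was -0.12 without the high-sum cells.

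Fibroblast growth factor homologous factors bind the tail of alpha subunits and delay inactivation. Of 4 such genes, 3 were listed, Fgf12 with a difference of 0.46, Fgf13 (in 25 cells) with 0.13 and Fgf14 with 0.69. Without the high-sum cells these were 0.27, 0.62 and -0.0033.

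Proteins of the axon initial segment anchor the channels. All 6 listed genes of the 8 on that list had higher means in low-sodium cells, with a median difference of 0.72. Of all tested genes 42.1% had higher means, and of those with transcripts of 8 kb or more 62.0%. Ank3, Sptbn4, Nfasc and Tnr have a longest annotated transcript of that length, and its part here was not tested. Ank3, which encodes ankyrin-G, the main anchor, was 8.43 ± 0.76 in low-sodium cells and 7.75 ± 0.78 in chow cells. Its difference of 0.68 was 0.50 without the high-sum cells. Sptbn4, the spectrin that holds ankyrin-G, differed by 0.76 (1.00 without the high-sum cells), and the adhesion genes Nfasc, Nrcam and Cntn1 by 0.81, 0.30 and 0.09 (0.18, 0.03 and -0.18). Tnr, an extracellular matrix gene, differed by 1.01, but by -0.54 without the high-sum cells. The median without the high-sum cells was 0.11 with 4 of 6 higher. Of all tested genes 43.0% were then higher, and of those at 8 kb or more 49.7%.

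Of 5 genes that set the amount of channel, 3 had higher and 2 lower means in low-sodium cells. The ubiquitin ligase genes Nedd4l and Nedd4 differed by -0.08 and 0.17, and Rest, the repressor that keeps sodium channel genes off outside neurons, was found in 10 cells and differed by 0.37. All 10 of these carried markers of other cell types, and the difference without such cells was 0. The RNA-binding protein genes Celf4 and Pum2 differed by -0.24 and 0.22. When the high-sum cells were left out, Nedd4l differed by -0.49, Nedd4 by 0.06, Rest by 0.36, Celf4 by -0.27 and Pum2 by 0.66. Pum2 differed by -0.47 without the cells that carried markers of other cell types. Of the related genes described here, Tnr alone, 1 of 15, differed by 1 or more in size over all cells, where 10.9% of all tested genes did.

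All 10 pairs of alpha subunits had an r above 0 among cells, but their strength differed from pair to pair. Over the 65 cells, Pearson's r of log2(CPM + 1) was highest between Scn8a and Scn9a (0.50), Scn2a1 and Scn8a (0.48), Scn2a1 and Scn9a (0.45) and Scn1a and Scn3a (0.42). Without the high-sum cells these were 0.42, 0.37, 0.35 and 0.52. The lowest were Scn1a and Scn9a (0.03) and Scn1a and Scn2a1 (0.12), which were 0.14 and 0.18 without the high-sum cells. With 8087 compared genes the median r over the 65 cells was 0.10 for Scn1a and for Scn3a and 0.05 for Scn2a1. It was 0.02 for Scn8a and -0.01 for Scn9a. Scn2b had r of -0.34 to 0.25 with the alpha genes, the highest of them with Scn1a, and of -0.21 to -0.03 without the high-sum cells. Scn3b had its highest r with Scn3a (0.36) and Scn1a (0.24), which were 0.34 and 0.40 without the high-sum cells. Scn2b and Scn3b had an r of -0.24 over all cells and of 0.03 without the high-sum cells. The 2 values of a pair come from the same library and scale, and r with the number of detected genes was 0.38 for Scn1a, 0.33 for Scn3a and between -0.08 and 0.29 for the others.

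**Figure D5:**
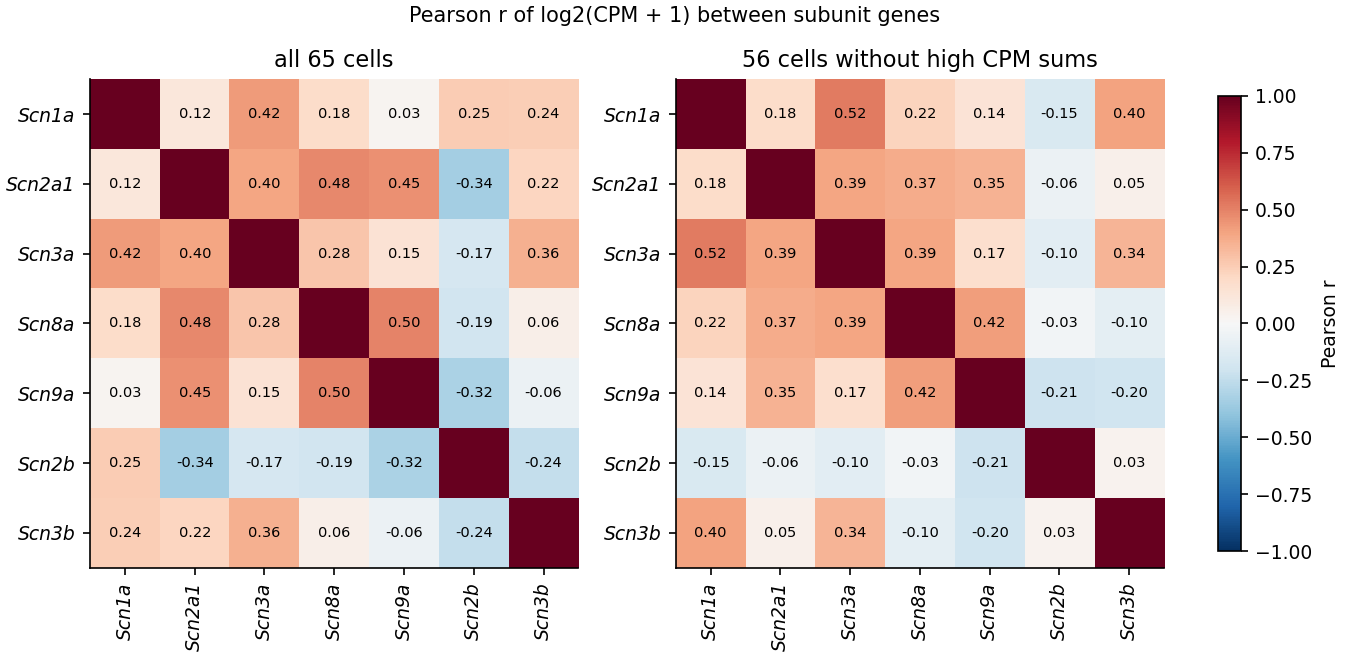
Pearson's r of log2(CPM + 1) between the 7 subunit genes over all 65 cells (left) and over the 56 cells that are not high-sum cells (right), on a colour scale from -1 to 1. The highest r is 0.50 on the left, of Scn8a and Scn9a, and 0.52 on the right, of Scn1a and Scn3a.

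The genes most like each subunit among cells were found among 8087 genes, by r over the 65 cells. For Scn2a1 they were Map2 (0.71), a microtubule protein of dendrites, Pclo (0.68), a scaffold of the presynaptic active zone, and Shisa7 (0.67), an auxiliary protein of synaptic receptors. For Scn1a they were Trank1 (0.73), Map3k12 (0.64), a kinase of axon injury signalling, and Pi4ka (0.61), a lipid kinase. For Scn3a they were Spag9 (0.70), a scaffold of JNK signalling, Nav1 (0.69), the microtubule protein neuron navigator and no sodium channel, and Nudcd3 (0.64). The r of Spag9 with Scn3a was 0.86 within low-sodium cells and 0.21 within chow cells, and that of Nudcd3 was 0.77 and 0.28, whereas that of Nav1 was 0.71 and 0.66.

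For Scn8a the nearest genes were Synj1 (0.57), which uncoats synaptic vesicles, Ptprf (0.57), a receptor phosphatase, and Phf3 (0.55). For Scn9a they were Rab6a (0.53), a Golgi trafficking protein, Scn8a itself (0.50) and Dlg2 (0.49), a synaptic scaffold. For Scn3b they were Morn4 (0.61), Ankrd29 (0.60) and Ergic1 (0.57). Scn2b stood nearest to Fam162a (0.72), Mrpl20 (0.71), a mitochondrial ribosomal protein, and Micu3 (0.70), a regulator of mitochondrial calcium uptake. These 3 were at 0.23, 0.40 and 0.46 without the high-sum cells, and the alpha neighbours were at 0.40 (Synj1 with Scn8a) to 0.73 (Nav1 with Scn3a). The longest annotated transcripts of the 14 genes nearest to the alpha subunits, other than a subunit gene, had a median of 7215 bases. The 3 nearest to Scn2b had a median of 810 bases, and the 3 nearest to Scn3b one of 3195. Over the 8138 genes with a length that were above 0 in at least 33 cells, the median was 3607.5 bases. The part of length in these correlations was not tested.

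RNA markers of other cells were found in each diet. At least 3 astrocyte markers reached 10 CPM in 7 of 32 low-sodium and 12 of 33 chow cells, and their summed level ran from 72.4 to 1455 CPM in low-sodium cells and from 131 to 4052 CPM in chow cells. Of the 7 astrocyte genes, Slc1a3, Aqp4, Gja1 and Aldh1l1 were above 0 in fewer low-sodium than chow cells, Slc1a3 in 6 low-sodium and 17 chow cells. Slc1a2 was above 0 in 22 low-sodium and 16 chow cells, Gfap in 9 low-sodium and 8 chow cells, and Aldoc in all 65. At least 3 oligodendrocyte markers reached 10 CPM in 13 low-sodium and 11 chow cells, and 0 of 6 microglial markers were listed. The diet differences without all such cells are given above for Scn1a, Scn3a, Scn2b and the alpha to auxiliary ratio, and the other differences were then 0.71 for Scn2a1, 0.31 for Scn9a, -0.10 for Scn8a and 0.63 for Scn3b.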

How the data were processed

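The authors deposited expression as log2(CPM + 1), a line per gene and a column per cell, with CPM meaning read counts after scaling. Per the submitters' processing notes, the software used includes HISAT2 2.0.5, featureCounts 1.4.6, SAMtools 0.1.19, Picard 2.5.0 and bcl2fastq, and the builds mm10 and GRCm38 are named. Settings, annotation and the total used for scaling are not stated there. The tissue label (NTS) was followed, although the protocols speak of Arc-ME.

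CPM were computed by undoing the log2 and subtracting 1. All CPM up to 20 times a cell's smallest step were whole multiples of it to within 0.1 steps, and this step was read as 1 count. The deposited values lie on a grid of 0.01 on a log2 scale, so they were rounded before deposit. Of 12015 lines, 140 that share a name or carry a serial number in place of one were left out, which left 11875 genes (Ank2, named by 2 lines, among those left out). Differences are means of the deposited log2 values in low-sodium cells less the means in chow cells. Cells at 0 enter the mean, and the pseudocount of 1 CPM shrinks differences of low values. Levels per kb use the union of annotated exons. Cells whose CPM sum exceeded 1200000 were called high-sum cells, a limit known from earlier results. With 1 sample per diet no test was run, so genes past a difference of 1 are counts and not calls of significance. The difference script was tested on simulated data with Python 3.11.15 and numpy 2.4.6. The simulated cells had no spread beyond counting error and no high CPM sums, so that run checks the calculation only.

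The subunit genes and the lists were chosen with earlier results of these data known. Genes were named by rule: the 7 subunits, the listed genes of the related lists, and for each subunit the 3 genes with the highest r among named genes above 0 in at least 33 cells. A few named items and sequences are not reported here. Transcript length bins and the count of subunits past 1 with single cells left out were added after the values were seen.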

Additional observations from a re-analysis of the deposited data

How the results depend on the processing

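Of 323 alternative values of 39 results, 316 moved by less than a set limit. This was the smaller SD over cells of the 2 diets, for counts 1.5 times, and for the mean r of alpha pairs a fixed size. The SD over cells is wide, so a move within it does not show that a value is stable. Scn1a at -0.89 without cells that carried markers of other cell types was within it. So were Scn3a at -0.58 and Scn3b at -0.29 without the high-sum cells. Without the high-sum cells, 2 subunits in place of 4 had a higher mean in low-sodium cells and 0 in place of 1 differed by 1 or more. With single cells left out in turn that last count ran from 0 to 2. The number of subunits with a higher mean also rose under some alternatives. It was 6 with a pseudocount of 10 CPM, with mean CPM, and without the 7 cells with the fewest detected genes. Without those 7 cells Scn1a differed by 0.18 and Scn3a by 0.34. The number was 5 with medians and 3 without cells that carried markers of other cell types. With a minimum mean of 3 in place of 1, 706 genes in place of 1172 differed by 1 or more. Without division by length the log2 ratio of alpha to auxiliary sums was 1.87 in low-sodium and 0.92 in chow cells, so the sign in chow cells (-0.46 per kb) rests on the length correction. The difference of Scn2b ran from -1.27 to -0.45 over all alternatives, that of Scn2a1 from 0.52 to 1.07, and that of the alpha to auxiliary ratio from 0.50 to 1.12. Scn1a, Scn3a, Scn8a, Scn3b and the median of the 7 genes changed sign under at least 1 alternative. The median of the 7 genes was -0.10 without cells that carried markers of other cell types. No paired analysis was possible because neuron numbers only name cells and the results come from no test. Depth limits detection: a transcript under the level of 1 read in a cell can be missed.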
